A study of Arabidopsis thaliana with 8 samples.

Results

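The genes described here encode 5 partners of MBD7 or of the DNA glycosylase ROS1 in active DNA demethylation of Arabidopsis thaliana: IDM1 (AT3G14980), IDM2 (AT1G54840), IDM3 (AT1G20870), ZDP (AT3G14890) and APE1L (AT3G48425). The windows described are those of 1000 bp that overlap the annotated span of each gene or the 2 kb on either side of it. This took 85 of the 238296 windows of the table: 22 at IDM1, 13 at IDM2, 15 at IDM3, 19 at ZDP and 16 at APE1L. The question was how much Myc-precipitated chromatin lay over the bodies and flanks of these genes in each of 4 groups. All 85 windows lie in chromosome arms, on chromosomes 1 and 3, and all passed the filter on low counts.

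The groups came from whole seedlings aged 14 days, so each value is an average over their tissues. The WT plants carried, by their sample names, a 35S-SUC2 transgene. Their labels name no Myc-tagged protein, and they gave 2 input and 2 Myc ChIP libraries. The proMBD7::gMBD7:4xMYC plants carried a genomic copy of MBD7 with 4 Myc tags behind its own promoter, and likewise gave 2 input and 2 Myc ChIP libraries. Every title of the tagged plants reads MBD7-5, which names no second line. An input is sonicated, crosslinked chromatin that was not precipitated. The labels give an Invitrogen antibody for WT ChIP and a Millipore antibody for MBD7 ChIP, whereas the protocol names only the Invitrogen one, so it is not settled which antibody was used for MBD7 ChIP. If the labels hold, antibody and genotype cannot be told apart in a comparison of the ChIP groups.

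As background, plants remove 5-methylcytosine by base excision. ROS1 and its relatives cut out the methylated base and nick the strand, and the blocked 3′ end is then trimmed by APE1L, an AP endonuclease-like enzyme, or by ZDP, a 3′ phosphatase, before the gap is filled and sealed. IDM1 is a histone acetyltransferase that helps ROS1 to reach certain methylated loci. IDM2 and IDM3 are α-crystallin-domain proteins that act with IDM1, and MBD7, a protein that binds methylated CG sites, is part of the same complex. The data show how much Myc-precipitated chromatin was recovered over the genes of MBD7's partners, not how the proteins interact. Signal over these genes is not by itself tagged MBD7, because the untagged WT ChIP also recovered them.

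Depth differed widely between groups. The median member window held 70 and 61 counts in the WT inputs, 75 and 50 in the MBD7 inputs, 12 and 14 in MBD7 ChIP, and 5 and 2 in WT ChIP. In total the 85 windows held 430 and 260 counts in the WT ChIP libraries against 1195 and 1315 in the MBD7 ChIP libraries. The TMM scaling factors ran from 0.447 to 2.08, with those of all 4 ChIP libraries below those of all 4 inputs. The 100 windows with the most counts held 55.6% to 61.4% of the counts of the ChIP libraries and 22.7% to 31.8% of those of the inputs, and the part of this in the scaling was not tested. Levels below are scaled counts (cpm) per window of 1000 bp, and a fold change is the log2 ratio fitted with edgeR. Nothing in the labels says that replicates were separate cultures, so each p measures only the spread between these libraries.

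Across the 5 loci, most windows showed no difference between MBD7 ChIP and its input that passed the test. Those that passed were mostly below input, except with scaling on arm protein-coding windows, where 6 were higher and 5 lower. MBD7 ChIP exceeded MBD7 input in 3 of the 85 windows, and 18.1% of all 232963 tested windows were higher. It was below MBD7 input in 14 windows, or 16.5% of the 85, where 6.19% of all tested windows were lower. Windows over protein-coding genes in the arms are the nearer background, and there 2.33% were higher and 9.48% lower. The median log2 fold change of the 85 windows was -0.31, and that of the arm protein-coding windows was -0.30. All 3 higher windows belong to the IDM3 locus. The lower ones were 7 at ZDP and 2 each at IDM1, IDM2 and IDM3, with 1 at APE1L. Adjacent windows share 500 bp, so the calls are fewer separate stretches than their number. Scaled by library size alone, all 85 windows were lower, in a fit whose median over all windows was -2.15 where TMM gave -0.0974.

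Against WT ChIP, 1 of the 85 windows was higher and 0 lower (background 5.78% higher and 0.491% lower, and 0.926% and 0.496% of arm protein-coding windows), at an adjusted p under 0.05 by edgeR (quasi-likelihood, with Benjamini-Hochberg adjustment over all windows). At an unadjusted p under 0.05 there were 7. The interaction asks whether ChIP over input differs between the genotypes, and it passed in 1 window upwards and 1 downwards (background 6.54% and 0.573%). These comparisons share the MBD7 ChIP libraries, so their calls are not independent of each other.

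The gene bodies came next, each the sum of the windows that touch the gene. None of the 5 bodies passed in any of the 5 comparisons. For MBD7 ChIP against MBD7 input that is 0 of 5, where 30.3% of all gene bodies passed in either direction. Against WT ChIP the background was 11.9%, for the interaction 11.2%, for WT ChIP against WT input 9.25% and between the inputs 0.0106%. At an unadjusted p under 0.05, edgeR's test picked out the bodies of ZDP (lower in MBD7 ChIP than in MBD7 input, and between the inputs) and IDM3 (interaction), 3 of the 25 tests on bodies. Scaled on arm protein-coding windows alone, the IDM3 body passed for MBD7 ChIP against MBD7 input (adjusted p = 0.0224) and for the interaction (adjusted p = 0.0484). The DESeq2 Wald test called 0 of the 5 in each comparison.

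IDM1, the acetyltransferase, had body levels of 1.53 and 1.33 cpm per window in the WT inputs, 1.63 and 0.883 in WT ChIP, 1.49 and 1.56 in the MBD7 inputs, and 1.19 and 1.15 in MBD7 ChIP. Both MBD7 ChIP libraries lay below both of their inputs, while the WT ChIP libraries straddled theirs. The log2 fold change of MBD7 ChIP over MBD7 input was -0.31 ± 0.157 (SE; 95% interval -0.64 to 0.0190; adjusted p = 0.143, edgeR). Against WT ChIP it was -0.23 ± 0.212 (adjusted p = 0.555, edgeR). Without WT ChIP replicate 1, the higher of its group, that value was 0.39.

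IDM2 had 0.955 and 1.06 cpm per window in the WT inputs, 0.462 and 0.846 in WT ChIP, 1.19 and 0.782 in the MBD7 inputs, and 1.28 and 0.955 in MBD7 ChIP. WT ChIP had the lowest library and the lowest mean, and the MBD7 groups overlapped each other. The body differed from MBD7 input by 0.22 ± 0.238 and from WT ChIP by 0.72 ± 0.432 on the log2 scale (adjusted p = 0.509 and 0.318, edgeR). The interval of the difference from WT ChIP, -0.18 to 1.63, is wide, and the WT ChIP libraries held 9 and 13 counts over the body. Of its 5 body windows, 1 covers IDM2 alone, and the others also touch NF-YC3, the RNA gene AT1G08003 or AT1G54850.

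IDM3, the second α-crystallin-domain partner, had 1.81 and 1.64 cpm per window in the WT inputs, 1.21 and 1.12 in WT ChIP, 1.58 and 1.47 in the MBD7 inputs, and 1.65 and 1.76 in MBD7 ChIP. Both MBD7 ChIP libraries were above both MBD7 inputs and both WT ChIP libraries, and below the higher WT input (1.81). Of the 7 body windows, 3 cover IDM3 alone, and the others also touch a neighbouring gene. The body's log2 fold change was 0.23 ± 0.138 over MBD7 input and 0.46 ± 0.221 over WT ChIP (adjusted p = 0.225 and 0.207, edgeR). Its interaction was 0.66 ± 0.250 (95% interval 0.134 to 1.18; adjusted p = 0.106, edgeR). WT ChIP over WT input was at -0.43 on the log2 scale.

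ZDP, the 3′ phosphatase, had 1.5 cpm per window in each WT input, 1.35 and 0.947 in WT ChIP, 1.27 and 1.28 in the MBD7 inputs, and 0.937 and 0.948 in MBD7 ChIP. The MBD7 ChIP libraries lay below both inputs of their genotype and reached the lower WT ChIP library. The log2 fold change was -0.37 ± 0.140 over MBD7 input (95% interval -0.66 to -0.0777; adjusted p = 0.0522, edgeR) and -0.40 ± 0.202 over WT ChIP (adjusted p = 0.229, edgeR). With only every second window counted, beginning with the first of each chromosome, the former value was -0.47 with an adjusted p of 0.0128 by edgeR. With only windows that lie wholly inside the gene it was 0.0310, in a fit with its own scaling. No lower level was thus shown inside ZDP alone.

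APE1L, the AP endonuclease-like enzyme, had 1.46 and 1.56 cpm per window in the WT inputs, 1.19 and 1.42 in WT ChIP, 1.47 and 1.66 in the MBD7 inputs, and 1.68 and 1.38 in MBD7 ChIP. All 4 groups overlapped or nearly touched. Its log2 fold change was 0.0338 ± 0.143 over MBD7 input (95% interval -0.27 to 0.33) and 0.15 ± 0.219 over WT ChIP (adjusted p = 0.880 and 0.727, edgeR). The interval leaves room for differences of either sign.

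**Figure D1:**
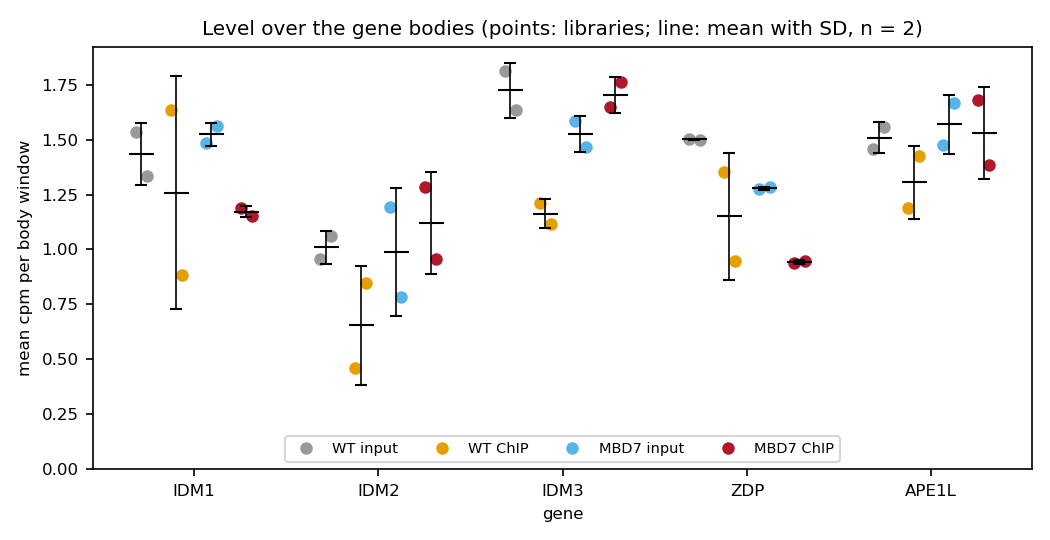
Scaled counts (cpm) per 1000 bp window over the 5 gene bodies; each point is a library, the line a group mean and the bar its SD (n = 2). MBD7 ChIP reached 1.65 and 1.76 over IDM3, above both MBD7 inputs there, and 0.937 and 0.948 over ZDP, below both.

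Ordered by the mean level in MBD7 ChIP, the bodies ran IDM3 (1.70 ± 0.0818), APE1L (1.53 ± 0.210), IDM1 (1.17 ± 0.0244), IDM2 (1.12 ± 0.232) and ZDP (0.943 ± 0.00725), in cpm per window (SD, n = 2). IDM3 and APE1L overlapped, as did IDM1 and IDM2. APE1L stood above IDM1 in both libraries, and both libraries of IDM2 stood above both of ZDP, the lower of them only just (0.955 against 0.948). In MBD7 input the order was APE1L (1.57), IDM3 (1.53), IDM1 (1.52), ZDP (1.28) and IDM2 (0.987), so IDM3 and APE1L were also among the highest in chromatin that was not precipitated. The median body value for MBD7 ChIP over MBD7 input was that of APE1L, 0.0338, where all gene bodies had a median of -0.15. Protein-coding genes of the arms had a median of -0.26 with quartiles of -0.46 and -0.0453. IDM1 and ZDP fell between those quartiles, and IDM2, IDM3 and APE1L lay above the upper one.

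Flanks passed against MBD7 input at a share near that of all flanks. Each gene has a flank of 4 windows on the side of lower coordinates and 4 on the side of higher coordinates, leaving out windows that touch the gene. For MBD7 ChIP against MBD7 input, 3 of the 10 flanks passed, where 29.9% of all low-coordinate flanks and 29.8% of all high-coordinate flanks passed. None of the 10 passed against WT ChIP (background 8.3% and 8.33%), in the interaction (7.97% and 8.28%), for WT ChIP against WT input (9.13% and 8.85%) or between the inputs (0.0132% and 0.0106%), by edgeR with Benjamini-Hochberg adjustment. The DESeq2 Wald test called 2 of the 10 against MBD7 input and 0 in each other comparison. At an unadjusted p under 0.05, edgeR's test picked out 1 flank against WT ChIP, the high flank of ZDP, and 1 for WT ChIP against WT input, the high flank of IDM3. It picked out 0 in the interaction and 0 between the inputs.

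**Figure D2:**
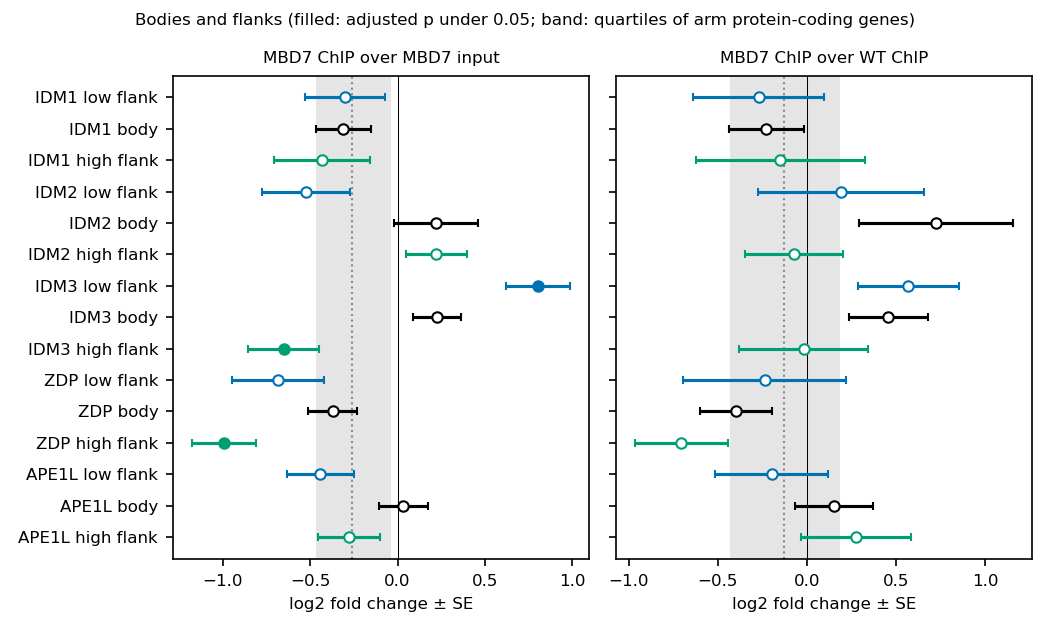
Log2 fold change ± SE of each body and flank for MBD7 ChIP over MBD7 input (left) and over WT ChIP (right); filled points have an adjusted p under 0.05, and the grey band and dotted line give the quartiles and median of arm protein-coding bodies. On the left the IDM3 low flank stands highest (0.80) and the ZDP high flank lowest (-0.99), and no point on the right is filled.

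The low flank of IDM3 was the only segment of the 15 called above input. It held 108 and 153 counts in MBD7 ChIP, 367 and 224 in MBD7 input, 32 and 16 in WT ChIP, and 311 and 340 in WT input. Scaled, these were 2.34 and 3.04 cpm per window in MBD7 ChIP, 1.65 and 1.46 in MBD7 input, 2.06 and 1.30 in WT ChIP, and 1.44 and 1.88 in WT input. Both MBD7 ChIP libraries were above all 6 others. The log2 fold change over MBD7 input was 0.80 ± 0.185 (adjusted p = 0.00211, edgeR). Over WT ChIP it was 0.57 ± 0.284 and the interaction was 0.68 ± 0.329, neither of which passed (adjusted p = 0.245 and 0.243, edgeR). Without MBD7 input replicate 2 the value over input was 0.72 and no longer passed (adjusted p = 0.0553, edgeR).

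Within that flank, the windows that passed were the pair farthest from IDM3, which lie over PHT1;8 (AT1G20860), a gene of the phosphate transporter family. At chromosome 1:7256501-7257500 the libraries held 47 and 61 counts in MBD7 ChIP, 106 and 59 in MBD7 input, 8 and 4 in WT ChIP, and 90 and 91 in WT input. Scaled, MBD7 ChIP reached 4.07 and 4.85 cpm, and the other 6 libraries lay between 1.30 and 2.06. This window was higher than MBD7 input by 1.35 ± 0.192 (adjusted p = 7.96e-08), higher than WT ChIP by 1.38 ± 0.390 (adjusted p = 0.0203), and had an interaction of 1.43 ± 0.428 (adjusted p = 0.0279), all on the log2 scale by edgeR. WT ChIP over WT input was -0.0844 there. Scaled by library size alone, its log2 value over MBD7 input was -0.72, above the median of -2.15 that all windows had in that fit.

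The call over input held without each library in turn, with values from 1.11 to 1.46. The call against WT ChIP, which rests on 12 WT ChIP counts, held only without MBD7 ChIP replicate 1. It was also lost with thinning, with library size alone and with the ChIP groups alone (adjusted p = 0.120, 0.118 and 0.137, edgeR). Leaving out any of the other 7 libraries gave log2 values from 1.13 to 1.79 and adjusted p from 0.0509 to 0.224 by edgeR. The interaction was lost without WT input replicate 2, WT ChIP replicate 1 or 2, MBD7 input replicate 2 or MBD7 ChIP replicate 2, with values from 1.18 to 1.85, and with thinning or library size alone (adjusted p = 0.111 and 0.256, edgeR).

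The overlapping window 7257001-7258000 was higher than MBD7 input by 1.30 ± 0.226 (adjusted p = 5.31e-06, edgeR) and not called against WT ChIP (0.81; adjusted p = 0.332, edgeR). Both windows nearer to IDM3 were level with input: the log2 values were -0.0853 from 7257501 and 0.0864 from 7258001, both also over PHT1;8. With flanks of 1 kb in place of 2 kb, the low flank of IDM3 therefore had a log2 value of 0.00402. The 4 windows just beyond the 2 kb limit had log2 values of 0.98, 1.39, 1.27 and 1.28 over MBD7 input, and are given as a description of what lies outside the rule. In those farthest out, from 7254501 and 7255001, WT ChIP was not low either, with 10 and 19 and then 11 and 15 counts. As a whole, the PHT1;8 body was higher by 0.94 ± 0.131 than MBD7 input and by 0.58 ± 0.165 than WT ChIP (adjusted p = 1.14e-05 and 0.0256, edgeR). The raised stretch near IDM3 thus lay over PHT1;8 and ended more than 1 kb short of IDM3.

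**Figure D3:**
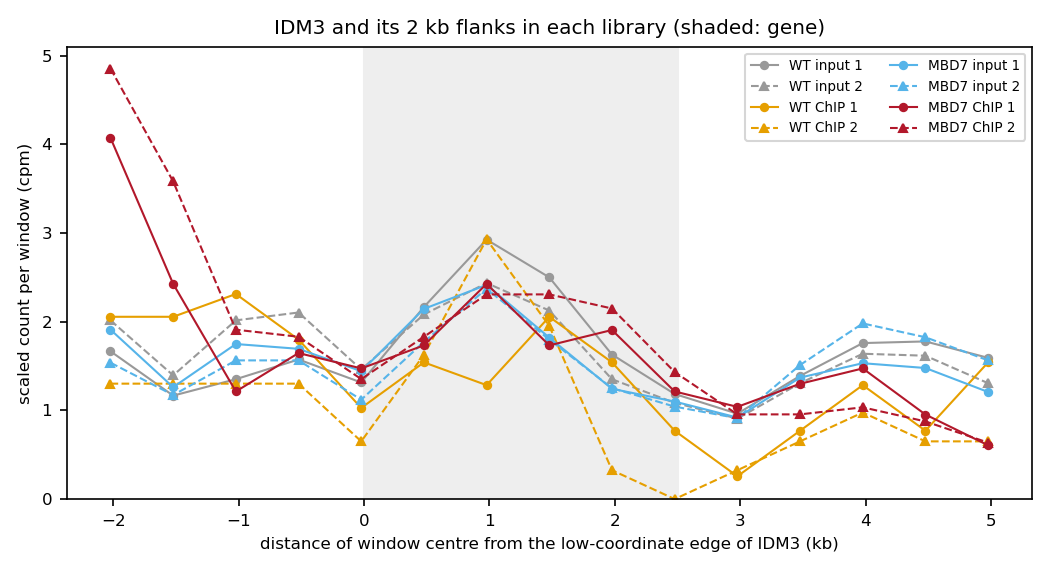
Scaled counts (cpm) per window across IDM3 and its 2 kb flanks in each of the 8 libraries, by distance of the window centre from the gene's low-coordinate edge in kb. Both MBD7 ChIP libraries exceed 4 cpm in the window farthest to the left, over PHT1;8, and fall over the gene, where the window 1:7260501 still has them at 1.91 and 2.15 cpm with the 4 inputs between 1.24 and 1.63.

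The third higher window, 1:7260501-7261500, lies at the high-coordinate end of the IDM3 body and also touches AT1G20875. It falls outside the rule for named windows and is given because it is the remaining call in this direction. Its counts were 22 and 27 in MBD7 ChIP, 69 and 48 in MBD7 input, 6 and 1 in WT ChIP, and 88 and 61 in WT input. MBD7 ChIP was higher than MBD7 input by 0.70 ± 0.254 (adjusted p = 0.0353) and did not pass against WT ChIP (1.01; adjusted p = 0.344), by edgeR. The call over MBD7 input was lost by the DESeq2 Wald test and without MBD7 ChIP replicate 1. Leaving out WT input replicate 1 or 2 or MBD7 input replicate 1 or 2 also ended it for this window. Next to it, the window from 7261001 held 14 and 18 counts in MBD7 ChIP against 3 and 0 in WT ChIP, and that from 7261501 held 12 and 12 against 1 and 1. Neither difference from WT ChIP passed (adjusted p = 0.240 and 0.281, edgeR).

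On its high side, over AT1G20880, IDM3 had 50 and 44 counts in MBD7 ChIP, 310 and 264 in MBD7 input, 17 and 9 in WT ChIP, and 352 and 265 in WT input. This flank was lower in MBD7 ChIP than in MBD7 input by a log2 value of -0.65 ± 0.205 (adjusted p = 0.0201, edgeR), and WT ChIP over WT input was -0.67 ± 0.314 there. MBD7 ChIP over WT ChIP was -0.0187 (95% interval -0.77 to 0.74). The call was lost without MBD7 input replicate 2 (-0.50), MBD7 ChIP replicate 1 (-0.72) or MBD7 ChIP replicate 2 (-0.40). It was also lost with DESeq2's size factors (adjusted p = 0.0632 in edgeR), arm protein-coding scaling (0.226), the DESeq2 Wald test (0.137), MBD7 ChIP thinned to WT ChIP totals (0.434), flanks of 1 kb (0.213) and the MBD7 groups alone (0.0515), with log2 values from -0.54 to -0.37. AT1G20880 as a whole was lower against input in both genotypes, by -0.48 ± 0.147 in the tagged line and -0.99 ± 0.226 in WT (adjusted p = 0.0192 and 0.00719, edgeR). The lowest window, 1:7263501-7264500, had a log2 value of -1.12 (adjusted p = 0.0151, edgeR), lost without either MBD7 ChIP library, with arm protein-coding scaling (adjusted p = 0.102, edgeR), with thinning (0.147) and by the DESeq2 Wald test (0.0878).

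At ZDP the strongest result was also in a flank over a neighbour. The high flank, over EMB3120 (AT3G14900), a gene named for its embryo-defective mutant, held 59 and 83 counts in MBD7 ChIP, 692 and 427 in MBD7 input, 36 and 27 in WT ChIP, and 634 and 614 in WT input. Scaled, MBD7 ChIP had 1.28 and 1.65 cpm per window, MBD7 input 3.12 and 2.78, WT ChIP 2.31 and 2.20, and WT input 2.93 and 3.40. MBD7 ChIP was lowest, WT ChIP came next, and the inputs, which overlapped each other, were above both. MBD7 ChIP was lower than MBD7 input by a log2 value of -0.99 ± 0.184 (adjusted p = 0.000239, edgeR), and this held without each library in turn (-1.10 to -0.74).

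The difference from WT ChIP was -0.71 ± 0.261 and did not pass (adjusted p = 0.105, edgeR). The 5 windows from 3:5013001 to 3:5015001 were all lower than input, with log2 values from -1.08 to -0.97. Of these, the calls of 5014001 and 5015001 were lost without MBD7 ChIP replicate 1 and replicate 2, in that order. Thinning ended the calls of 5013001 and 5014001 (adjusted p = 0.0842 and 0.204, edgeR). Arm protein-coding scaling and the DESeq2 Wald test ended that of 5015001 (adjusted p = 0.0805, edgeR, and 0.0720). The window from 5013501 had the most input of the whole set, with means of 4.83 cpm over the WT inputs, 4.38 over the MBD7 inputs and 2.22 in MBD7 ChIP. The EMB3120 body was lower than MBD7 input by -0.90 ± 0.147 and than WT ChIP by -0.70 ± 0.214 (adjusted p = 7.88e-05 and 0.0398, edgeR). This stretch thus had high input and less than input in MBD7 ChIP, and whether the input level has a part in the ratio was not tested.

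On the low side of ZDP, over AT3G14880, the flank had 24 and 29 counts in MBD7 ChIP against 217 and 122 in MBD7 input, a log2 value of -0.68 ± 0.262 that just missed the threshold (adjusted p = 0.0532, edgeR). Its lowest window, 3:5007501-5008500, had 1 and 5 MBD7 ChIP counts against 35 and 30 in MBD7 input, and a fitted log2 value of -1.46 (adjusted p = 0.0367, edgeR). The neighbouring window from 5007001, outside the naming rule, was also called at -1.03 (adjusted p = 0.0460, edgeR). Both calls were lost with arm protein-coding scaling and by the DESeq2 Wald test. Inside ZDP no window that covers only this gene passed, and log2 values ran from -0.75 to 0.20. The highest, from 5011001, had 11 and 22 counts in MBD7 ChIP, so its libraries differed.

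The IDM1 locus, the longest of the 5, held no window called above input. The highest, 3:5041501-5042500 inside the gene, had a log2 value of 0.16 (adjusted p = 0.720, edgeR). The window 3:5043001-5044000, also inside IDM1, had 11 counts in each MBD7 ChIP library, 94 and 80 in MBD7 input, 7 and 4 in WT ChIP, and 108 and 68 in WT input. It was lower than MBD7 input by a log2 value of -1.02 ± 0.301 (adjusted p = 0.00811, edgeR), a call lost without either MBD7 ChIP library (adjusted p = 0.0561 and 0.101, edgeR). It was lost too with arm protein-coding scaling (-0.73, adjusted p = 0.0845, edgeR), with thinning (-1.61, adjusted p = 0.0733, edgeR) and by the DESeq2 Wald test (adjusted p = 0.0681). WT ChIP over WT input was -0.17 there, and the interaction of -0.85 did not pass (adjusted p = 0.502, edgeR).

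Between IDM1 and DJ1A, in the window 3:5046001-5047000, which touches no annotated gene, MBD7 ChIP held 0 and 1 counts. WT ChIP held 2 and 3, MBD7 input 27 and 12, and WT input 21 and 14. The ratio of scaled counts over MBD7 input was 0.0998 (95% counting interval 0.00247 to 0.590), and that over WT ChIP was 0.0578 (0.00122 to 0.516), intervals that cover counting error only. The window was called below MBD7 input (adjusted p = 0.00924) and in the interaction (adjusted p = 0.0402), and not against WT ChIP (adjusted p = 0.0510), by edgeR. The first call was lost without MBD7 input replicate 1 or MBD7 ChIP replicate 1 and by the DESeq2 Wald test (adjusted p = 0.134), and the interaction without any of 6 libraries. The window had the least input of the set, so it rests on few counts in every group. The windows on either side of it had log2 values of -0.57 and 0.0860 over input.

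The flanks of IDM1 lie over AT3G14960 and AT3G14970 on the low side and DJ1A, a DJ-1 family gene, on the high side. Their log2 values over MBD7 input were -0.30 ± 0.226 and -0.43 ± 0.277, between the quartiles of arm protein-coding bodies and not called (adjusted p = 0.331 and 0.248, edgeR).

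At IDM2 the called windows were on the low side, over AT1G54820. The window 1:20450001-20451000 held 2 and 5 counts in MBD7 ChIP, 41 and 36 in MBD7 input, 1 and 2 in WT ChIP, and 44 and 33 in WT input. It was lower than MBD7 input by a log2 value of -1.48 ± 0.482, and the next, from 20450501, by -1.17 ± 0.377 (adjusted p = 0.0176 and 0.0162, edgeR). WT ChIP held 3 counts in all in each of them, and neither window differed from WT ChIP (adjusted p = 0.875 and 0.956, edgeR). The former call was lost without MBD7 ChIP replicate 1 and the latter without MBD7 ChIP replicate 2. Both were lost with arm protein-coding scaling (adjusted p = 0.0766 and 0.102, edgeR) and by the DESeq2 Wald test (adjusted p = 0.0989 and 0.113). With thinning the latter went to -0.0911 (adjusted p = 0.947, edgeR).

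Over IDM2 itself, the adjoining windows from 20452001 and 20452501 had log2 values of 1.24 and 1.56 over WT ChIP that did not pass (adjusted p = 0.281 and 0.200, edgeR). In the next, from 20453001, which covers IDM2 alone, MBD7 ChIP held 12 and 14 counts and WT ChIP 2 and 0 (adjusted p = 0.307, edgeR). Against MBD7 input these 3 windows had log2 values of 0.27, 0.38 and 0.0766 and were not called. The highest window over input, 1:20456001-20457000 over AT1G54850, had 0.74 ± 0.330 (adjusted p = 0.0985, edgeR). The high flank as a whole was at 0.22 ± 0.176 (adjusted p = 0.356, edgeR).

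APE1L had the narrowest range of the 5 loci, with log2 values of windows over MBD7 input from -0.84 to 0.36. The window 3:17930001-17931000, over AT3G48420 on the low side, had 10 counts in each MBD7 ChIP library against 86 and 54 in MBD7 input, and was lower by -0.84 ± 0.308 (adjusted p = 0.0385, edgeR). That call was lost with arm protein-coding scaling and by the DESeq2 Wald test. The highest window, 3:17933001-17934000 inside APE1L, had 45 and 30 counts in MBD7 ChIP, 119 and 107 in MBD7 input, 9 and 4 in WT ChIP, and 123 and 105 in WT input. Its log2 value was 0.36 ± 0.214 over MBD7 input and 0.74 ± 0.430 over WT ChIP, and neither passed (adjusted p = 0.235 and 0.422, edgeR). The low flank was at -0.44 ± 0.190 and the high flank, over REF6, a histone demethylase gene, at -0.28 ± 0.178 (adjusted p = 0.0848 and 0.244, edgeR).

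**Figure D4:**
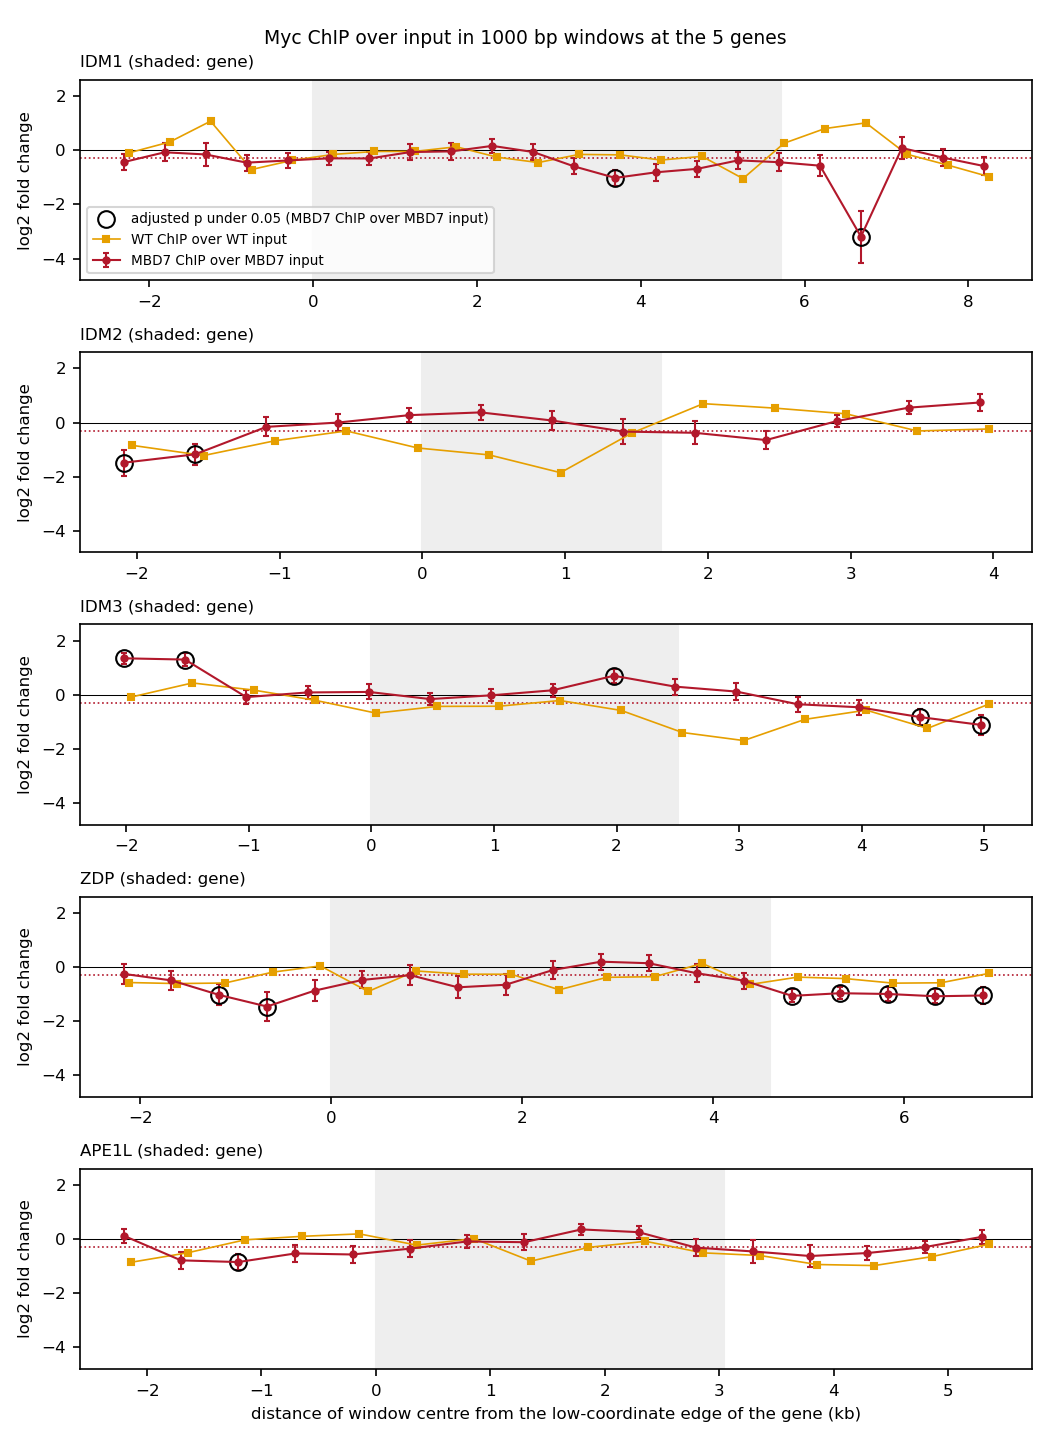
Log2 fold change in 1000 bp windows across each gene (shaded) and its 2 kb flanks, against the distance in kb of the window centre from the gene's low-coordinate edge: MBD7 ChIP over MBD7 input in red with SE, WT ChIP over WT input in orange. Circles mark calls for the former, 3 above input at IDM3 and 14 below, and the dotted line is the median of arm protein-coding windows (-0.30).

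The untagged precipitation and the inputs set the background of these loci. For WT ChIP against WT input, 0 of the 85 windows passed by edgeR (background 5.59%), with 3 at an unadjusted p under 0.05. Their median was -0.36, and that of arm protein-coding windows was -0.27. The WT ChIP median too was thus below input under this scaling, with no lower level shown at any of these genes. Between the inputs, 0 windows passed by edgeR (background 0.0197%) and 5 had an unadjusted p under 0.05. These 5 were 4 adjoining windows inside ZDP and 1 inside IDM3, all lower in the MBD7 inputs, with log2 values from -0.50 to -0.36. The DESeq2 Wald test also called 0 windows in each of these comparisons. No change in copies of the 5 genes was detected between the genotypes at this depth.

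The wider pathway was described with 25 other genes of demethylation and base excision repair, from the glycosylases to the ligase. For MBD7 ChIP against MBD7 input, 798 of 23600 arm protein-coding bodies were higher and 4524 lower, with a median log2 value of -0.26. Of the 25 genes, 3 bodies were higher and 3 lower (16.8% and 13.4% of all gene bodies), with a median of -0.14 beside -0.15 for all gene bodies. MBD7 itself was the highest at 1.10 ± 0.136 (adjusted p = 2.37e-06, edgeR). In the tagged plants, which carry the MBD7 transgene, MBD7 input was itself 2.94 above WT input on the log2 scale. MBD7 was also higher in WT ChIP than in WT input, by 1.38 ± 0.188 (adjusted p = 6.11e-05, edgeR), and its interaction was -0.28 (adjusted p = 0.508, edgeR). ARP6, a subunit of the SWR1 chromatin remodelling complex, was higher by 0.59 ± 0.150, and ARP, an apurinic endonuclease, by 0.43 ± 0.135 (adjusted p = 0.00593 and 0.0219, edgeR). With library size alone these 3 were called lower, MBD7 at -0.32, ARP6 at -0.83 and ARP at -0.996, where all bodies had a median of -1.57. OGG1, the 8-oxoguanine glycosylase, was lower by a log2 value of -0.87 ± 0.200, DML2, a relative of ROS1, by -0.64 ± 0.143, and NTH2, an endonuclease III homologue, by -0.58 ± 0.191 (adjusted p = 0.00256, 0.00199 and 0.0273, edgeR).

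Against WT ChIP, 578 of 23600 arm protein-coding bodies were higher and 849 lower, with a median of -0.13. Of the 25 genes, 3 were higher and 2 lower (8.93% and 3% of all gene bodies), with a median of 0.12. Besides MBD7 (2.67 ± 0.173) these were PARP1, a poly(ADP-ribose) polymerase, at 0.74 ± 0.207 and MBD9, which belongs to the same protein family as MBD7, at 0.55 ± 0.169 (adjusted p = 1.67e-08, 0.0245 and 0.0401, edgeR). DML2 was at -0.79 ± 0.191 and ROS3, an RNA-binding protein of the demethylation pathway, at -0.78 ± 0.194 (adjusted p = 0.00972 and 0.0120, edgeR). PARP1 was at 0.0423 over MBD7 input, and it was lower in WT ChIP than in WT input (-0.73, adjusted p = 0.0233, edgeR). Both comparisons use the same MBD7 ChIP libraries. ROS1, the glycosylase that the 5 genes serve and which the naming rule would not include, had 0.30 ± 0.141 over MBD7 input and did not pass (adjusted p = 0.113, edgeR). Of these 11 calls, both of MBD7 held without each library in turn. OGG1 lost its call without MBD7 ChIP replicate 2 (log2 value -0.68), and PARP1 lost its own without MBD7 ChIP replicate 1 (0.63). ARP6 was lost without either MBD7 input. DML2 was lost over MBD7 input without MBD7 input replicate 1 or MBD7 ChIP replicate 2, and over WT ChIP without WT ChIP replicate 1 or MBD7 ChIP replicate 2. ROS3 was lost without WT ChIP replicate 2 or MBD7 ChIP replicate 1. NTH2, ARP and MBD9 were each lost without any 1 of 5 libraries. Calls were also lost with all libraries in the fit. NTH2 was lost with arm protein-coding scaling (adjusted p = 0.203, edgeR) and by the DESeq2 Wald test (0.156). Thinning ended those of OGG1, ARP, NTH2 and DML2 over MBD7 input (adjusted p = 0.183, 0.931, 0.108 and 0.0955, edgeR). It also ended those of MBD9 and DML2 over WT ChIP (adjusted p = 0.156 and 0.111, edgeR). The ChIP groups alone ended those of PARP1, MBD9, DML2 and ROS3 over WT ChIP (0.131, 0.225, 0.0792 and 0.0847, edgeR). With every second window, beginning with the first, ROS3 was at -0.24.

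**Figure D5:**
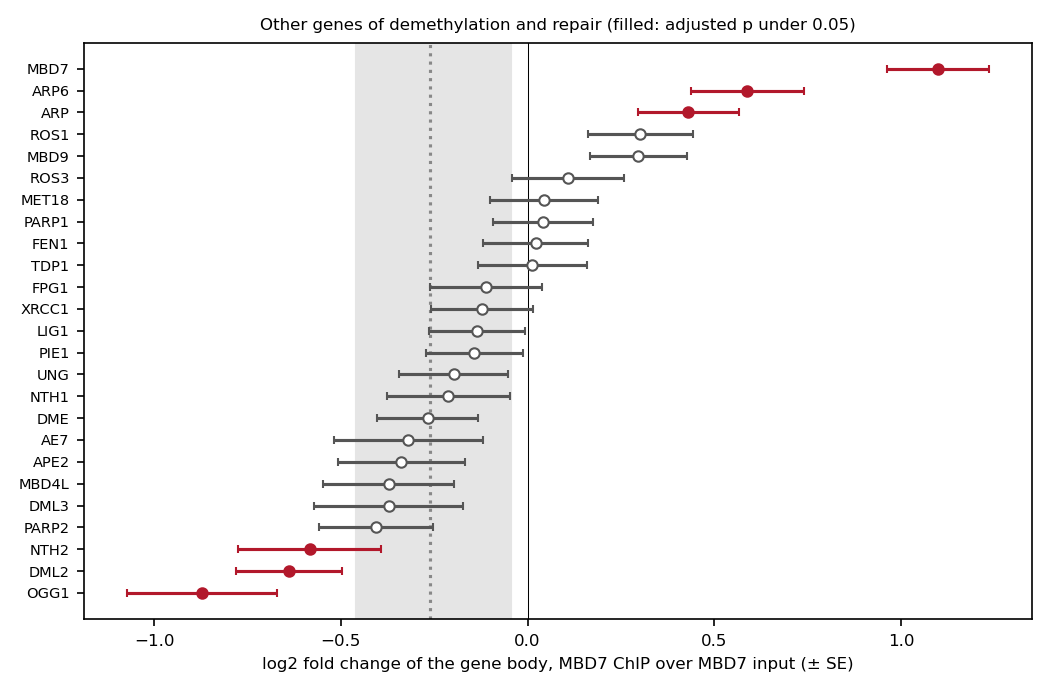
Log2 fold change ± SE over MBD7 input of the bodies of 25 other demethylation and repair genes, sorted by value; filled red points have an adjusted p under 0.05 and the grey band and dotted line give the quartiles and median of arm protein-coding bodies. MBD7 stands apart at 1.10 and OGG1 is lowest at -0.87.

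Genes with the most similar pattern over the 8 libraries were found by the Euclidean distance of centred log2 cpm of the body, among protein-coding genes within a 2-fold range of level and over 10 kb away. They were AT2G20620 for IDM1 (distance 0.148, where the median candidate had 0.970), AT4G34930 for IDM2 (0.286, median 1.37), RECQ4A for IDM3 (0.157, median 0.972), AT4G33740 for ZDP (0.142, median 0.923) and AT1G56130 for APE1L (0.0996, median 0.866). The candidates numbered from 24076 to 25677 per gene, and a nearest gene is found in any pattern. None of the 5 genes was the nearest of another.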

How the data were processed

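The authors deposited 1 table of read counts for 238296 windows of 1000 bp, placed every 500 bp on chromosomes 1 to 5, with 1 column for each of the 8 libraries. The submitters' processing notes name the TAIR10 build and the tools Bowtie2, SAMtools and featureCounts. Their versions, and how duplicate and multiply mapped reads were treated, are not given in the sources used. Libraries were grouped by title and genotype. Totals were 31459707 and 24679699 counts for WT input, 7450486 and 4971029 for WT ChIP, 26739116 and 19224696 for MBD7 input, and 25846940 and 23761267 for MBD7 ChIP.

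From these counts, edgeR 4.0.16 (limma 3.58.1, R 4.3.3) was fitted to all windows that passed filterByExpr, with TMM scaling, all 4 groups in 1 quasi-likelihood model, two-sided tests and Benjamini-Hochberg adjustment at 0.05. Gene bodies and the flanks on each side were fitted as tables of every annotated gene, from windows summed over gene spans. These spans are those of RefSeq's TAIR10.1 table, used with the TAIR10 windows; all 25 other pathway genes matched by locus ID. The table gives no strand, so flanks are named by coordinate and not as upstream or downstream. Each table has its own TMM factors, whereas printed levels use those of the window table, so a fold change can differ slightly from the ratio of levels. An SE is the absolute log2 fold change divided by the square root of edgeR's F statistic, and intervals of log2 values follow from it. These SEs rest on 4 residual degrees of freedom, moderated over all features, and counting intervals are exact binomial ones at 95%.

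The members and lists were chosen with earlier results of these data known. Named windows are the 12 with the smallest p among those called and the highest and lowest of each gene, and named pathway genes are those called in MBD7 ChIP against MBD7 input or WT ChIP, with ROS1 added outside this rule. Alternatives covered scaling, test, filter, pairing, depth, window overlap, flank length, libraries in the fit and each library left out. DESeq2 1.42.0 gave the alternative test. Counting only windows wholly inside a gene was chosen after seeing the data. The fits were tested on simulated data. Simulated counts of every group followed the input profile, so this test does not bear on the scaling between ChIP and input. Figures used Python 3.11.15 and matplotlib 3.10.9.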

Additional observations from a re-analysis of the deposited data

Results flagged for a closer look

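The window 1:7256501-7257500 near IDM3, over PHT1;8, differed between the genotypes in its ChIP over input, with an interaction of 1.43 ± 0.428 on the log2 scale (adjusted p = 0.0279, edgeR). Both MBD7 ChIP libraries were above both MBD7 inputs there, while the WT ChIP libraries straddled the WT inputs. The interaction call of this window was lost without any 1 of 5 libraries, with thinning and with library size alone. The window 3:5046001-5047000 beside IDM1 differed in the other direction, with a fitted interaction of -4.21 ± 1.33 (adjusted p = 0.0402, edgeR). That value rests on 1 count in MBD7 ChIP and 5 in WT ChIP and is no bound on the difference. This second call was lost without any 1 of 6 libraries. Causes of either difference were not tested, and if the labels hold, antibody and genotype cannot be told apart in them.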

How the results depend on the processing

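The choice of scaling moved these results most. By library size alone the median of all windows for MBD7 ChIP over MBD7 input went from -0.0974 to -2.15, and that of all gene bodies from -0.15 to -1.57. The counts called then became 85 windows, 5 bodies, 10 flanks and 25 pathway genes against MBD7 input, in place of 17, 0, 3 and 6. For WT ChIP over WT input they became 81 windows, 5 bodies and 10 flanks, in place of 0 each. Against WT ChIP 0 windows were left, and 1 in the interaction. In that fit the log2 value over MBD7 input changed sign for the bodies of IDM2 (-1.21), IDM3 (-1.20) and APE1L (-1.39), the low flank of IDM3 (-0.50) and the windows 1:7256501 (-0.72) and 1:7257001 (-0.76). The higher calls of MBD7 (-0.32), ARP6 (-0.83) and ARP (-0.996) became lower calls. APE1L also turned against WT ChIP (-0.0837) and in the interaction (-0.219), and IDM2 between the inputs (0.0745).

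Factors from arm protein-coding windows moved the median of all windows to 0.19 and the share of window calls that were higher from 74.5% to 94.8%. They gave 11 member windows and 1 body over MBD7 input and 1 body in the interaction, and WT ChIP over WT input turned at IDM1 (0.0782) and APE1L (0.0119). DESeq2's size factors turned IDM1 there (0.0117), as did its Wald test (0.00209), which called 6 windows over MBD7 input and 1 in the interaction. With it, 92.7% of all window calls and 79.4% of all body calls were higher, against 55.6% of body calls in edgeR.

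With MBD7 ChIP counts thinned to WT ChIP totals there were 7 windows over MBD7 input, 0 against WT ChIP and 0 in the interaction. It left 2 and 3 pathway genes over MBD7 input and WT ChIP, in place of 6 and 5, and turned IDM2 over input (-0.00566). Every second window, beginning with the first, gave 10 windows and 1 body over input, 0 windows against WT ChIP, 1 in the interaction and 3 pathway genes against WT ChIP. Beginning with the second it gave 7 windows and 5 flanks over input, 1 window in the interaction and 3 pathway genes against WT ChIP, and turned ZDP in the interaction (0.199) and IDM2 between the inputs (0.00664). Within 1 kb of the genes there were 9 windows over input, 0 against WT ChIP and 1 in the interaction. With the groups of the comparison only, 0 windows and 1 pathway gene differed from WT ChIP. Windows wholly inside a gene gave 3 pathway genes against WT ChIP and turned ZDP over input (0.0310) and in the interaction (0.0851), and IDM1 (0.0221) and APE1L (0.00274) in WT ChIP over WT input.

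With each library left out in turn, windows called ran from 8 to 19 over MBD7 input, from 0 to 1 against WT ChIP and from 0 to 1 in the interaction. The lowest, 8 and 10, came without MBD7 ChIP replicate 1 and replicate 2. Flanks over input ran from 1 to 4, with 1 called without MBD7 input replicate 2. Pathway genes ran from 2 to 8 over input and from 2 to 5 against WT ChIP, the 2 being without MBD7 input replicate 1 and MBD7 ChIP replicate 1. Sign changes were seen at IDM1 against WT ChIP (-0.47 to 0.39), in the interaction (-0.54 to 0.32), in WT ChIP over WT input (-0.55 to 0.32) and between the inputs (-0.0371 to 0.163). They were seen at IDM2 over input (-0.0395 to 0.59) and between the inputs (-0.40 to 0.226), and at ZDP in the interaction (-0.27 to 0.227). APE1L changed sign over input (-0.0446 to 0.265), in WT ChIP over WT input (-0.211 to 0.0680) and between the inputs (-0.0502 to 0.106). A lone library was assumed to vary like the other groups.

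No pairing by replicate number was seen: deviations of same-numbered libraries correlated between -0.00989 and 0.046 over 35821 gene bodies. Such a correlation cannot show whether same-numbered libraries came from the same material. With the replicate number as a block, 16 windows were called over MBD7 input. For none of these changes was the cause tested. WT ChIP depth limits every comparison with that group.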
